A study of Mus musculus with 3 samples.

Results

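The genes described here are 7 acute phase and alarmin genes, Hp, Lbp, Lcn2, Saa3, Cp, S100a8 and S100a9, of 22954 genes in the single-cell tables. They were chosen by name, but with earlier results of these data known. The paper itself reports Hp as a myofibroblast marker increased in fibroblasts after conventional irradiation alone. Each gene was followed in every marker-gated cell type of the lung, in fibroblasts and outside them. All 7 were above 0 in at least 1 cell of each library. The tables come from whole lungs of 3 female C57BL6/J mice that the labels mark as WT (wild type), 1 mouse and 1 library for each group. All of them had received 13 Gy to both sides of the thorax and were sampled 5 months later. The CONV mouse was irradiated at a conventional dose rate, the FLASH mouse at an ultra-high dose rate, and the CONV AsiDNA mouse at the conventional rate after AsiDNA, a cholesterol-coupled DNA molecule that mimics a broken DNA end. AsiDNA was injected at 100 mg/kg on each of 2 days and at 200 mg/kg on the day of irradiation, and no FLASH mouse with AsiDNA is among these libraries. The methods give an age of 8 to 9 weeks at the start of mouse experiments, whereas the series text speaks of mice of 5 months, so the age at sampling is not given further here. Unirradiated libraries were not analysed here, so no value below is set against a normal lung. With 1 mouse a group there is no replicate and no test. The intervals cover the sampling of cells only, and a difference between libraries cannot be told apart from a difference between mice.

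Acute phase proteins are secreted in larger amounts during inflammation, in the liver above all and also by lung epithelium, under the control of interleukins 6 and 1 through STAT3, C/EBP and NF-kB factors. Hp (haptoglobin) binds free haemoglobin, Lbp (lipopolysaccharide-binding protein) passes bacterial lipopolysaccharide to Cd14, Lcn2 (lipocalin 2) sequesters bacterial iron carriers, Saa3 is an inducible serum amyloid A, and Cp (ceruloplasmin) is a copper protein that oxidises iron. S100a8 and S100a9 form calprotectin, the abundant cytosolic complex of neutrophils, which acts as an alarmin on Tlr4 and Ager once it is released.

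In GRCm38 the GENCODE M21 annotation places Lcn2 at chr2:32384633-32388252 on the minus strand and Lbp at chr2:158306493-158332852 on the plus strand. Cp lies at chr3:19957054-20009145 (plus), S100a8 at chr3:90668978-90670035 (plus) and S100a9 at chr3:90692632-90695721 (minus). Saa3 lies at chr7:46711998-46715700 and Hp at chr8:109575128-109579172, both on the minus strand. S100a8 and S100a9 are neighbours on opposite strands, with 22596 bases between them. The table of RefSeq promoters (GRCm38.p6) matched 5 of the 7 genes, with 6 windows of 250 bases before a start. Each window was searched on both strands for 3 motifs, the C/EBP letters TTGCNNAA, the STAT letters TTCNNNGAA and the NF-kB letters GGG and TTTCC with any 2 bases between them. The C/EBP letters were in 4 of the 6 windows, against 9.56% of all 32851 promoters in the table. STAT letters are in 7.02% and NF-kB letters in 1.41% of all promoters, and neither was in a window of these genes. The stretches of 30 bases around the C/EBP letters are shown in gene orientation, as the one feature searched for that several of these promoters share, with the 8 matched letters in capitals.
Lcn2, chr2:32387937-32387966, minus strand, letters beginning 216 bases before the start: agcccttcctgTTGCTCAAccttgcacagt
Cp, chr3:19957168-19957197, plus strand, letters beginning 70 bases before 1 of its 2 starts, on the opposite strand: attagttactcTTTTGCAAcattaaattgt
Saa3, chr7:46715757-46715786, minus strand, letters beginning 99 bases before the start, on the opposite strand: ggtaagtgggaTTATGCAAgatcaaacagg
S100a9, chr3:90695939-90695968, minus strand, letters beginning 236 bases before the start: ggtaggctgtcTTGCTTAAgatttgggcgg
The Lcn2 and Cp stretches overlap an annotated exon of another transcript of the same gene. The S100a8 window and the other Cp window held no match. A match is a string of letters, and binding was not measured.

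For each gene and cell the authors deposited a natural log value, which converts back to a whole number once 1 is taken off. That whole number is called the adjusted count here. It is a processed value, since totals per cell spanned only 1432 to 8462 and some abundant genes were listed at 0 throughout whole cell types. Lyz2, a lysozyme gene of myeloid cells, was for example listed at 0 in all neutrophils of CONV and FLASH. A member at 0 is therefore given as listed at 0, and no limit is set on it. Levels are adjusted CPM, that is, adjusted counts per 1000000 adjusted counts of all cells of the gate. Log2 ratios have 10 adjusted CPM added to both sides, so that differences of low genes come out smaller than they are, and past 2-fold means a log2 ratio of at least 1 in size. Libraries held 6372 cells (CONV), 6983 (CONV AsiDNA) and 6267 (FLASH), with median totals per cell of 3450, 3678 and 3621. Of 19619 cells kept, 95.3% took 1 of 18 compared cell types from lists of markers, none of which is a member. Each gate had 3 to 8 of its own markers and none of another class among its 10 leading genes. The same markers set the gates, so this describes them and is no check of the gating. The mesothelial gate of CONV held 19 cells, under the 20 set for a comparison. Pairs of libraries shared 9 to 17 cell barcodes.

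Each gene lay mainly in a few cell types, several of which were shared between members. S100a8 and S100a9 were neutrophil genes, with 95.5% and 96.2% of all their adjusted counts in that gate. Lcn2 was mainly in alveolar type 2 (AT2) cells, the surfactant-producing epithelium, with 77.3% of its sum, and in neutrophils with 19.7% (from 6.39% in CONV up to 29.8% of the CONV AsiDNA sum and 34.4% in FLASH). Hp was spread over club cells (30.3%), neutrophils (20.0%), AT2 cells (19.1%) and ciliated cells (15.2%), and its largest source was AT2 cells in CONV (31.2%), club cells in CONV AsiDNA (37.5%) and neutrophils in FLASH (27.1%). Lbp lay in ciliated cells (40.7%), AT2 cells (33.6%) and endothelial cells (18.6%). Cp lay in ciliated cells (29.5%), club cells (27.6%) and fibroblasts (23.6%). Except where a library is named, these shares pool the libraries. Saa3 was above 0 in 59 cells of all libraries, and 65.8% of its sum was in interstitial macrophages and 25.1% in fibroblasts. T cells, ILC2 and dendritic cells were at 0 for every member in every library. Over 18 gates and 3 libraries, a member was above 0 in at least 10% of the cells of a gate 60 times.

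**Figure D1:**
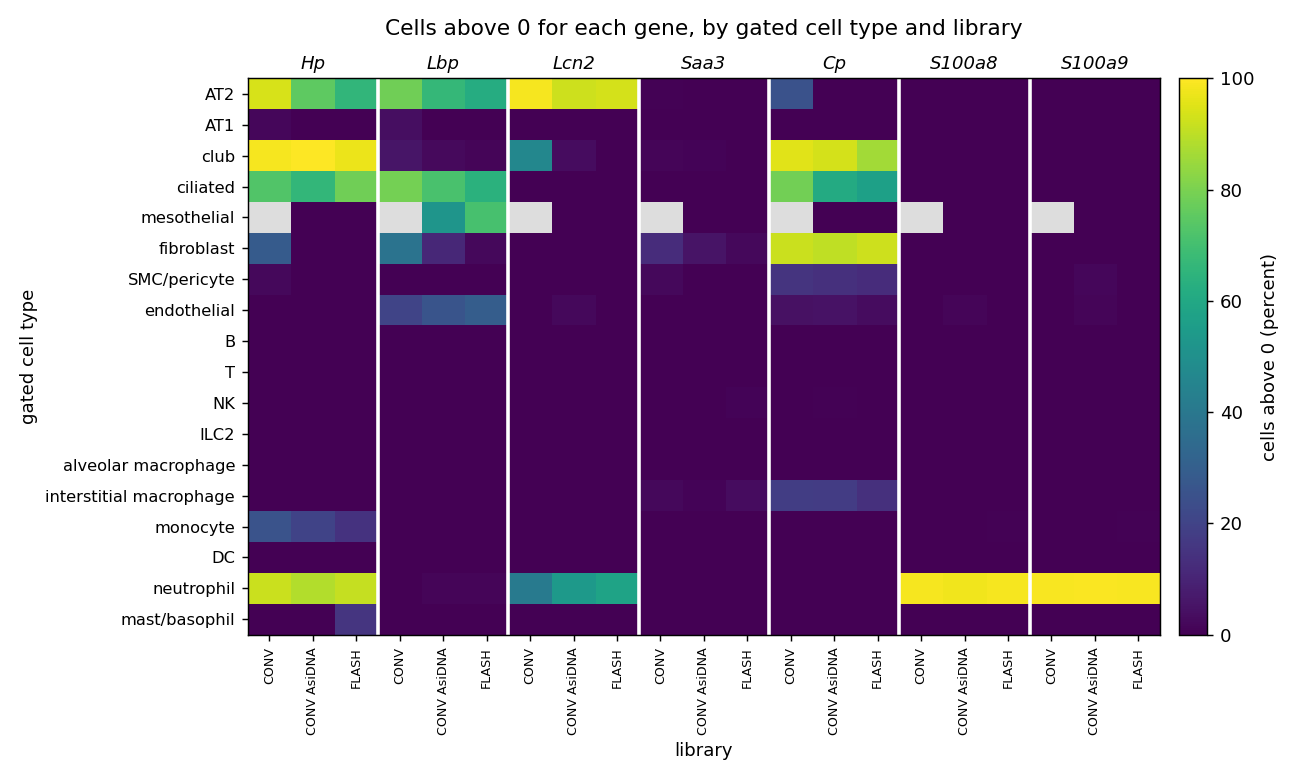
Share of cells above 0 (percent, colour) by marker-gated cell type (rows) and library (columns), in blocks for each of the 7 genes, with grey for gates of under 20 cells. Hp, Lbp, Lcn2 and Cp are bright in epithelial rows, S100a8 and S100a9 in the neutrophil row, and Hp in fibroblasts stands at 28.6% in CONV and at 0 in the other libraries.

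Between libraries, 13 of 66 member ratios were past 2-fold. The count covers each member, gate and pair of libraries in which the gate held 20 or more adjusted counts of the gene and neither library was at 0. Of these ratios, 10 were higher and 3 lower in the library named first, and most of them concern Lcn2 and Hp in AT2 cells, Lcn2 in club cells and neutrophils, and Lbp and Saa3 in fibroblasts. They are taken below by cell type, each beside the share of all genes that was past 2-fold in the same cells.

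Among the 3 members with a ratio in AT2 cells, Lcn2 had the largest log2 ratios of CONV over the others. It was above 0 in 286 of 290 cells in CONV (98.6%, 95% interval 96.5 to 99.6), in 302 of 327 in CONV AsiDNA (92.4%, 88.9 to 95) and in 359 of 383 in FLASH (93.7%, 90.8 to 95.9). Its level was 13818, 5035 and 3796 adjusted CPM in that order. The median AT2 cell held 49.5 adjusted counts of Lcn2 in CONV, 13 with AsiDNA and 10 in FLASH, while the highest cell held 282, 257 and 240. The libraries therefore differed in the middle of the distribution far more than at its top, and single cells of all libraries overlapped. CONV over CONV AsiDNA gave a log2 ratio of 1.45, CONV over FLASH 1.86 and CONV AsiDNA over FLASH 0.41.

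Hp in AT2 cells had the same order of libraries. It was above 0 in 273 cells in CONV (94.1%, 90.8 to 96.5), in 246 in CONV AsiDNA (75.2%, 70.2 to 79.8) and in 252 in FLASH (65.8%, 60.8 to 70.5), with medians of 8, 3 and 2 adjusted counts per cell. Its level was 2154, 921 and 737 adjusted CPM, which gives log2 ratios of 1.22 and 1.53 for CONV over the other libraries and 0.32 between those. With every cell thinned to 1000 adjusted counts the shares of Hp were 71.7%, 43.4% and 36.3%, in the same order. Lbp differed less. It was above 0 in 78.3% (73.1 to 82.9), 66.7% (61.3 to 71.8) and 61.9% (56.8 to 66.8) of AT2 cells, and its levels of 325, 286 and 219 adjusted CPM gave log2 ratios of 0.18 and 0.55 for CONV over the others.

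The members in AT2 cells can be read against all genes there. Of the 3 members with a ratio, Lcn2 and Hp were past 2-fold, both against CONV AsiDNA and against FLASH, where the share of all genes past 2-fold was 4.15% and 4.88%. For CONV AsiDNA over FLASH none of the 3 was past 2-fold, beside 0.746% of all genes. The intervals of the shares of Lcn2, Hp and Lbp in CONV did not overlap those in CONV AsiDNA or in FLASH, beside 15.8% and 19.7% of all genes whose intervals did not overlap in those pairs. With every cell thinned to 1000 adjusted counts, the intervals of Lbp overlapped between CONV (28.3%, 23.2 to 33.8) and CONV AsiDNA (21.7%, 17.4 to 26.6), while those of Lcn2 and Hp did not overlap in either pair. The pairs share the CONV library. Median totals of adjusted counts per AT2 cell were alike at 4833, 4829 and 4798, but as processed values they do not give the sequencing depth. The median mitochondrial share was 1.10%, 2.42% and 4.85%. Its part in these values was not tested.

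Cp in AT2 cells was listed above 0 in the CONV library alone. There it was above 0 in 73 of 290 cells (25.2%, 20.3 to 30.6), with values of 1 to 29 and a median of 2 among those cells, and it was listed at 0 in all 327 CONV AsiDNA and all 383 FLASH cells. All 73 of those cells also held Lcn2 and 71 held Hp. Among 2149 genes above 0 in at least 25% of CONV AT2 cells, Cp was the only one listed at 0 in CONV AsiDNA, and Cp, Alas1 and Timp2 were the 3 listed at 0 in FLASH. In the reverse direction, 1 of 2022 such genes of CONV AsiDNA and 1 of 1828 of FLASH were listed at 0 in CONV. No ratio is given, because the files can list a gene at 0 throughout a cell type.

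**Figure D2:**
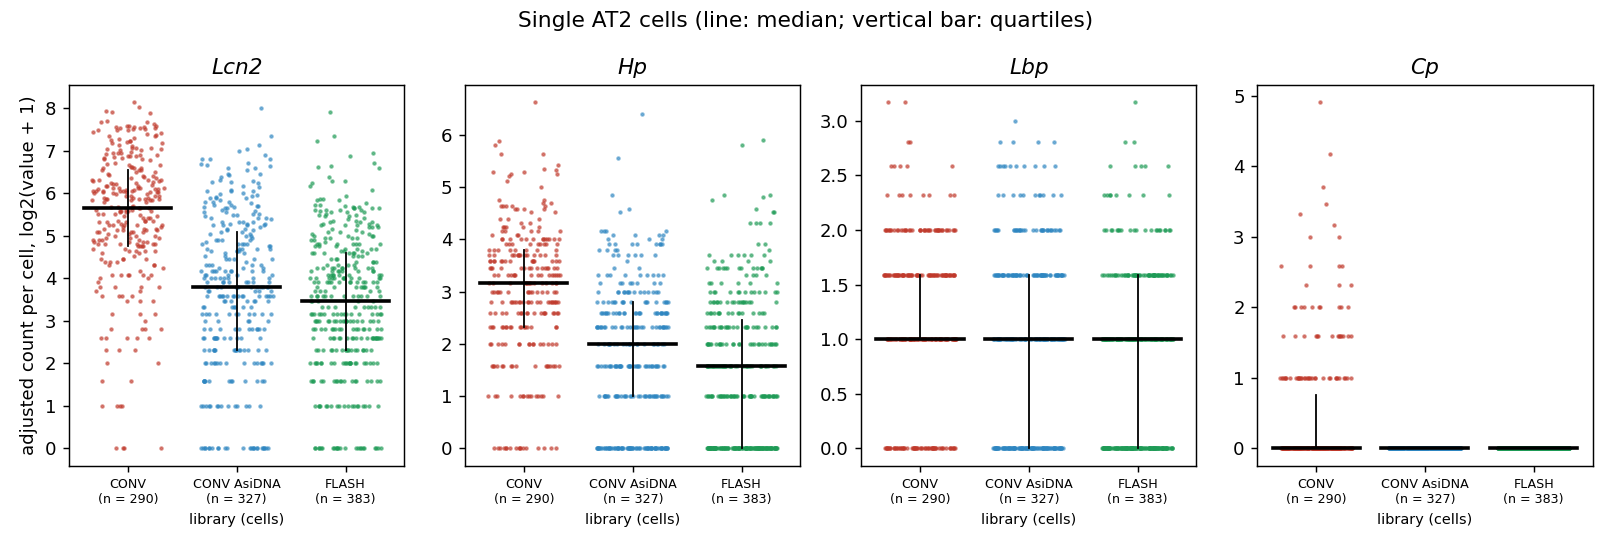
Adjusted counts per AT2 cell (log2 of value plus 1, vertical axis) of Lcn2, Hp, Lbp and Cp by library, with 1 point for each cell, a thick line at the median and a bar over the quartiles. The CONV cloud of Lcn2 is centred on 49.5 against 13 and 10, the tops of the 3 clouds lie at 282, 257 and 240, and Cp has points above 0 in CONV only.

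Most AT2 cells of CONV carried Lcn2, Hp and Lbp together. All of these genes were above 0 in 216 of 290 CONV cells (74.5%, 69.1 to 79.4), in 180 of 327 CONV AsiDNA cells (55%, 49.5 to 60.5) and in 166 of 383 FLASH cells (43.3%, 38.3 to 48.5), and none of them was above 0 in 3, 13 and 11 cells. Across cells, Spearman's rho of Lcn2 with Lbp was 0.29, 0.53 and 0.36 in the order of the libraries above, and that of Lcn2 with Hp was 0.09, 0.40 and 0.36. These are descriptions over 290, 327 and 383 cells of 1 library each, which share its depth and preparation. Within each library the AT2 cells were also ranked by Lcn2 and split into tertiles, a description that uses Lcn2 itself. Lbp was above 0 in 62.5% of the lowest and 92.7% of the highest tertile in CONV, in 41.3% and 90.8% in CONV AsiDNA, and in 42.5% and 83.5% in FLASH. Hp followed Lcn2 in CONV AsiDNA, from 534 to 1377 adjusted CPM, and in FLASH, from 402 to 1046, but in CONV it stood at 2529 in the lowest and 2332 in the highest tertile. Thus in CONV the AT2 cells with least Lcn2 still held as much Hp as those with most.

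The wider acute phase list, fixed with earlier results of these data known, had 12 genes with a ratio in AT2 cells for CONV over CONV AsiDNA. Of these, 5 were higher past 2-fold and none lower, with a median log2 ratio of 0.93 against 0.02 over all genes. For CONV over FLASH it was 6 higher and none lower of 11, with a median of 1.17 against 0.12, and for CONV AsiDNA over FLASH none of 11 in either direction. Of all genes in these pairs, 4.15%, 4.88% and 0.746% were past 2-fold in AT2 cells. Orm1, an orosomucoid that carries small molecules in plasma, stood at 186, 15.8 and 17.9 adjusted CPM (log2 ratios 2.92 and 2.81 for CONV over the others). Itih4, an inter-alpha-trypsin inhibitor heavy chain, stood at 2566, 717 and 736 (1.83 and 1.79). Fgg and Fga, chains of fibrinogen, stood at 434, 167 and 182 and at 179, 81.8 and 51.1 adjusted CPM. The S100 and alarmin list went no single way in these cells. For CONV over CONV AsiDNA none of 10 was higher and S100a10 was lower (-1.20), and for CONV over FLASH Anxa1 was higher (1.60) while S100a1 (-2.62) and S100a10 (-1.15) were lower.

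Among regulators of these genes in AT2 cells, 2 of 10 were higher and none lower past 2-fold for CONV over CONV AsiDNA. They were Cebpd, a C/EBP factor, at 659, 239 and 340 adjusted CPM (log2 ratio 1.43) and Nfkbia, the inhibitor that NF-kB itself induces, at 200.2, 94.4 and 86.4 (1.01). For CONV over FLASH 2 of 11 were higher, Nfkbiz (1.17), a nuclear partner of NF-kB, and Nfkbia (1.13). Of 7 receptors and binding partners, none was higher and Cd36, a scavenger receptor, was lower (-1.37) for CONV over CONV AsiDNA. For CONV over FLASH Cd14, which receives lipopolysaccharide from Lbp, was higher (1.35) and Cd36 lower (-1.15). These counts stand beside 4.15% of all genes past 2-fold against CONV AsiDNA and 4.88% against FLASH.

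Club cells, the secretory cells of the airway, held Hp in nearly every cell in all libraries. It was above 0 in 68 of 69 cells in CONV, in 126 of 126 in CONV AsiDNA and in 70 of 72 in FLASH, with medians of 25, 36 and 26 adjusted counts per cell. Its levels of 6217, 7155 and 5501 adjusted CPM gave log2 ratios of -0.20 and 0.18 for CONV over the others. Cp was above 0 in 95.7%, 93.7% and 86.1% of club cells, at 1798, 1768 and 1494 adjusted CPM. For both genes the libraries thus lay within a narrow range.

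Lcn2 in club cells did not follow that pattern. It was above 0 in 32 of 69 CONV cells (46.4%, 34.3 to 58.8), in 4 of 126 CONV AsiDNA cells (3.17%, 0.872 to 7.93) and listed at 0 in all 72 FLASH cells. The level went from 1099 adjusted CPM in CONV to 40.0 with AsiDNA, a log2 ratio of 4.47. It was 1 of 3 members with a ratio there, beside 9.76% of all genes past 2-fold. For CONV over FLASH neither of the 2 members with a ratio was past 2-fold, beside 19.2% of all genes. AT2 markers summed to 3784, 4561 and 3200 adjusted CPM in the club gates of CONV, CONV AsiDNA and FLASH. Of the 9 AT2 markers 4, 4 and 6 were above 0 there. Lamp3, Slc34a2 and Napsa were at 0 in every library, and Sftpc and Etv5 were at 0 in CONV and CONV AsiDNA. Scrublet scores were among the highest in 17 of 69, 20 of 126 and 11 of 72 club cells. The part of AT2 transcripts in the Lcn2 values was not tested. On the regulator list Cebpd was at 335, 133 and 47.1 adjusted CPM in these cells, Nfkbia at 257, 117 and 26.2, and Socs3, the feedback inhibitor of STAT3, was above 0 in 49.3%, 7.14% and 0% of them. In both pairs with CONV 3 regulators were higher and 1, Cebpb, was lower past 2-fold, at 40.2, 101 and 173 adjusted CPM, of 8 and 7 with a ratio. Lbp was nearly absent from club cells, with 4, 3 and 1 cells above 0.

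Ciliated cells carried Lbp, Cp and Hp, and none of the 3 was past 2-fold between libraries, beside 1.91% of all genes in the pair of CONV with CONV AsiDNA and 2.57% in that with FLASH. Lbp was above 0 in 79.0% of 300 cells in CONV (73.9 to 83.5), in 71.1% of 419 in CONV AsiDNA (66.5 to 75.4) and in 64.0% of 317 in FLASH (58.5 to 69.3), at 426, 309 and 318 adjusted CPM. Cp was above 0 in 78.7% (73.6 to 83.2), 61.1% (56.2 to 65.8) and 56.8% (51.1 to 62.3), at 717, 472 and 547 adjusted CPM. Both were thus highest in CONV. Hp ran the other way in level, at 809, 1059 and 1151 adjusted CPM, and was above 0 in 72.7% (67.2 to 77.6), 66.1% (61.4 to 70.6) and 78.2% (73.3 to 82.7). The intervals of the shares did not overlap for Cp between CONV and CONV AsiDNA (11.6% of all genes), for Lbp and Cp between CONV and FLASH (16.2%) and for Hp between CONV AsiDNA and FLASH (12.7%). At 1000 adjusted counts per cell the last of these did overlap, with Hp at 37.0% (32.4 to 41.8) and 46.7% (41.1 to 52.3). Lcn2 was at 0 in every ciliated cell, unlike in AT2 cells. Orm1, of the acute phase list, stood in ciliated cells at 106, 14.8 and 24.1 adjusted CPM (log2 ratios 2.23 and 1.77 for CONV over the others).

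In neutrophils S100a8 and S100a9 were above 0 in nearly every cell of each library. S100a8 was above 0 in 262 of 266 CONV cells, 302 of 309 CONV AsiDNA cells and 300 of 304 FLASH cells, with medians of 180, 193 and 232 adjusted counts per cell. S100a9 was above 0 in 263, 307 and 301 of them, with medians of 270, 285 and 349.5. The levels of S100a8 were 73389, 86763 and 97720 adjusted CPM, and those of S100a9 were 105429, 118511 and 140327. The order CONV, CONV AsiDNA, FLASH held for both genes, but the log2 ratios of CONV over FLASH were -0.41 for each and the ranges of single cells overlapped throughout. Their Spearman's rho over cells was 0.88, 0.94 and 0.92. Hp in neutrophils hardly differed between libraries, with 92.1%, 88.3% and 91.1% of cells above 0, a median of 6 in each library, and 2344, 2329 and 2325 adjusted CPM.

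Lcn2 in neutrophils ran opposite to Lcn2 in AT2 cells. It was above 0 in 110 of 266 cells in CONV (41.4%, 35.4 to 47.5), in 166 of 309 in CONV AsiDNA (53.7%, 48.0 to 59.4) and in 176 of 304 in FLASH (57.9%, 52.1 to 63.5). Its level was 1807, 3772 and 4147 adjusted CPM, and the highest cell held 166, 212 and 153 adjusted counts. CONV over CONV AsiDNA gave a log2 ratio of -1.06 and CONV over FLASH -1.19, and the others differed by -0.14. Of 4 members with a ratio, Lcn2 alone was past 2-fold in each pair with CONV, beside 10.5% and 11.4% of all genes. Of the same members it alone had shares whose intervals did not overlap in those pairs, beside 17.2% and 19.1% of all genes, so neutrophils of CONV differed from the others at many genes. Thinned to 1000 adjusted counts per cell, the shares were 32.7%, 46.6% and 49.7%. With the mean over cells in place of the ratio of sums the first log2 ratio was -0.88.

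**Figure D3:**
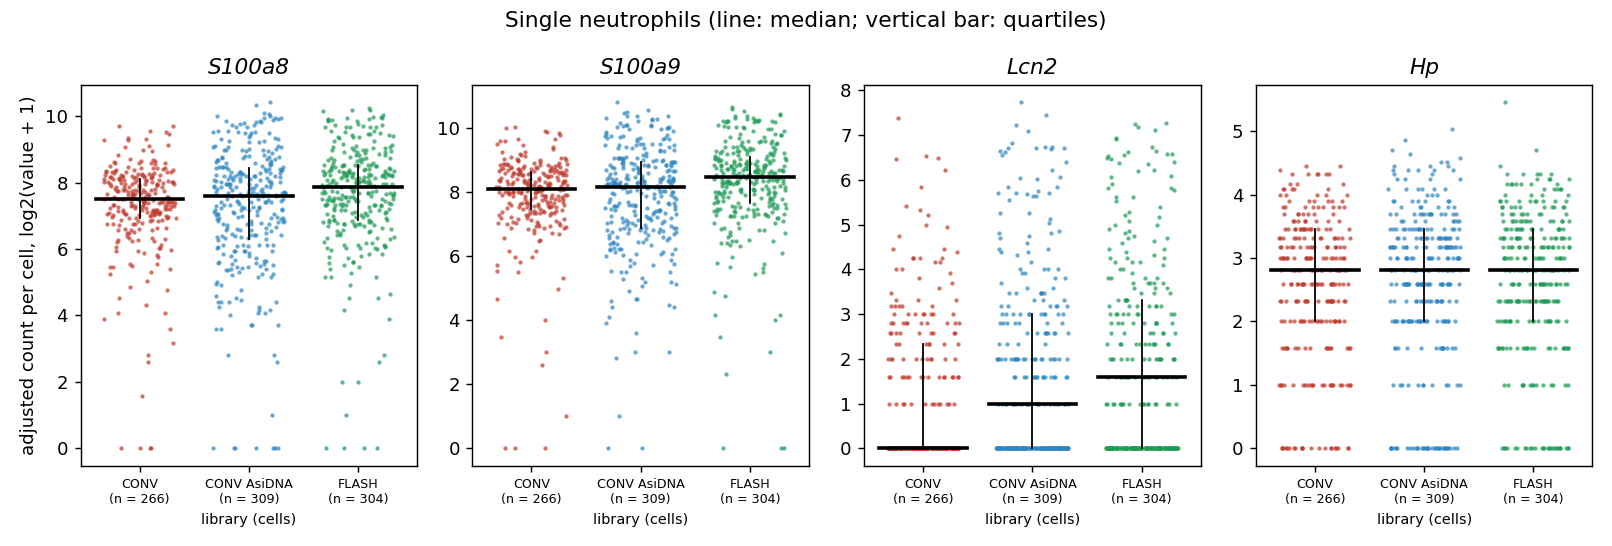
Adjusted counts per neutrophil (log2 of value plus 1, vertical axis) of S100a8, S100a9, Lcn2 and Hp by library, with 1 point for each cell, a thick line at the median and a bar over the quartiles. S100a8 and S100a9 form 1 cloud in each library, with medians of 180, 193 and 232 and of 270, 285 and 349.5, whereas Lcn2 has many cells at 0 and a tail up to 166, 212 and 153.

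Neutrophils with Lcn2 above 0 also differed from the rest in granule genes, a split made by Lcn2 and given as a description. Camp and Ngp encode granule proteins made while neutrophils mature. Camp was above 0 in 10, 36 and 34 of the neutrophils with Lcn2 (of 110, 166 and 176) and in 0, 0 and 1 of those without (of 156, 143 and 128). Ngp was above 0 in 15.5%, 28.3% and 26.7% of the former and in 4.49%, 2.80% and 1.56% of the latter. S100a8 stood at 93791, 112477 and 122624 adjusted CPM in cells with Lcn2 and at 58152, 51977 and 58103 in those without, so the difference by Lcn2 within a library was wider than that between libraries. The level of Hp differed by Lcn2 in the same direction but less, at 2747, 2554 and 2416 against 2042, 2025 and 2181. Hp was above 0 in 96.4%, 95.8% and 93.2% of cells with Lcn2 and in 89.1%, 79.7% and 88.3% of those without.

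On the acute phase list, 3 of 5 genes with a ratio in neutrophils were lower past 2-fold for CONV over CONV AsiDNA and 4 of 5 for CONV over FLASH, none higher, with median log2 ratios of -1.12 and -1.42 against -0.04 and 0.03 over all genes. Of all genes in these pairs, 10.5% and 11.4% were past 2-fold. Lrg1, a leucine-rich glycoprotein stored in neutrophil granules, stood at 356, 788 and 970 adjusted CPM (-1.12 and -1.42), and Trf, transferrin, at 45.2, 132 and 165 (-1.37 and -1.66). C3, the central complement component, was above 0 in 3.01%, 20.4% and 13.5% of neutrophils. None of the 4 other alarmins with a ratio was past 2-fold. In the monocyte gate, Hp was above 0 in 14 of 55 cells in CONV (25.5%, 14.7 to 39.0), in 64 of 316 in CONV AsiDNA (20.3%, 16 to 25.1) and in 59 of 404 in FLASH (14.6%, 11.3 to 18.4). Its log2 ratio of CONV over FLASH was 1.19, the only member ratio there, beside 11% of all genes past 2-fold, and the intervals of the shares overlapped.

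Fibroblasts, which lay down the collagen of the lung, carried Cp in nearly every cell and Hp, Lbp and Saa3 in fewer. Cp was above 0 in 58 of 63 CONV cells, 106 of 117 CONV AsiDNA cells and 159 of 172 FLASH cells, with medians of 6, 4 and 4 adjusted counts and levels of 1748, 1179 and 1441 adjusted CPM. Its log2 ratios stayed within 2-fold, at 0.56 and 0.28 for CONV over the others. Hp was above 0 in 18 of 63 CONV cells (28.6%, 17.9 to 41.3), with values of 4 to 60 and a median of 17, and was listed at 0 in all 117 CONV AsiDNA and all 172 FLASH cells. Of 2413 genes above 0 in at least 25% of CONV fibroblasts, 3 were listed at 0 in CONV AsiDNA (Hp, Snhg11 and Chl1) and 7 in FLASH. In the reverse direction, 2 of 2315 such genes of CONV AsiDNA and 6 of 2270 of FLASH were listed at 0 in CONV. Outside fibroblasts the same gene was above 0 in every library in club, AT2 and ciliated cells, neutrophils and monocytes. The gates of alveolar type 1 cells and of smooth muscle cells and pericytes, with 2 and 1 cells above 0 in CONV, were also listed at 0 in CONV AsiDNA and FLASH.

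Lbp in fibroblasts was above 0 in 24 CONV cells (38.1%, 26.1 to 51.2), 13 CONV AsiDNA cells (11.1%, 6.05 to 18.3) and 4 FLASH cells (2.33%, 0.637 to 5.85), and no cell held more than 5 adjusted counts. With every cell thinned to 1000 adjusted counts it was left in 5, 3 and 3 cells (7.94%, 2.56% and 1.74%), with overlapping intervals. Its levels were 127, 28.2 and 14.2 adjusted CPM, with log2 ratios of 1.84 and 2.50 for CONV over the others and 0.66 between those. The order of libraries was thus the same as for Lbp in AT2 cells and the gap wider. Saa3 was above 0 in 8, 6 and 4 fibroblasts (12.7%, 5.13% and 2.33%, with overlapping intervals), at 515, 476 and 38.3 adjusted CPM. Its log2 ratios of 0.11, 3.44 and 3.33 for CONV over CONV AsiDNA, CONV over FLASH and CONV AsiDNA over FLASH rest on these few cells, of which the highest held 82, 93 and 20. Without the cells of the highest Scrublet scores the first was -2.09 and the second 0.83, and without fibroblasts that held an AT2, club or ciliated marker the first was -2.24.

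Of the 3 fibroblast members with a ratio, 1 was past 2-fold for CONV over CONV AsiDNA (Lbp), 2 for CONV over FLASH (Lbp and Saa3) and 1 for CONV AsiDNA over FLASH (Saa3), beside 9.81%, 10.4% and 4.64% of all genes. Before thinning, the intervals of the share of Lbp did not overlap in any of the 3 pairs, beside 3.66%, 6.50% and 4.29% of all genes. Lcn2, S100a8 and S100a9 were at 0 in every fibroblast of every library.

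**Figure D4:**
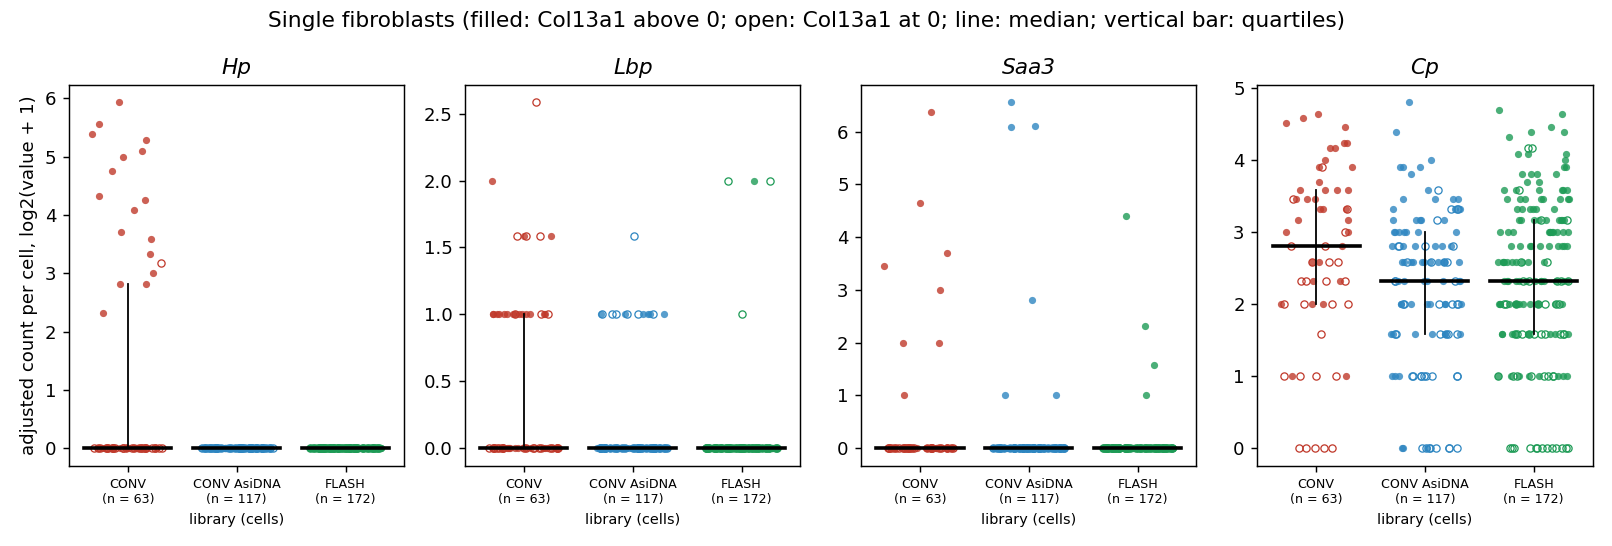
Adjusted counts per fibroblast (log2 of value plus 1, vertical axis) of Hp, Lbp, Saa3 and Cp by library, with 1 point for each cell, filled where Col13a1 was above 0, a thick line at the median and a bar over the quartiles. Hp has 18 points above 0, all in CONV and 17 of them filled, Saa3 has 8, 6 and 4, and Cp fills every library.

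Hp, Saa3 and Cp differed between fibroblasts with Col13a1 above 0 and the rest. The split rests on Col13a1 alone, so a cell listed at 0 for it need not be of another kind. Col13a1, a membrane collagen that marks alveolar fibroblasts, was above 0 in 36 of the 63 CONV fibroblasts, and Hp was above 0 in 17 of these 36 (47.2%, 30.4 to 64.5) and in 1 of the other 27. All Saa3 cells of the 3 libraries had Col13a1 above 0. Cp stood at 2433, 1425 and 1728 adjusted CPM in fibroblasts with Col13a1 and at 848, 764 and 707 in those without. Lbp showed no single direction by Col13a1, with 47.2% against 25.9% in CONV, 8.33% against 15.6% in CONV AsiDNA and 0.820% against 6.00% in FLASH. All 18 Hp cells also held Cp, 6 held Saa3 and 7 held Lbp.

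Markers of the cell types that carry these genes were looked for in the fibroblasts. Sftpc of AT2 cells and Scgb1a1 of club cells were at 0 in every fibroblast. Both were also listed at 0 in all neutrophils, T cells and endothelial cells. Their absence therefore does not show whether AT2 or club transcripts reached the fibroblasts. In CONV 2 of 9 AT2 markers, Abca3 and Etv5, were above 0, with a summed level of 39.9 adjusted CPM, as was 1 of 9 club markers and none of the 9 ciliated markers. An AT2 marker was above 0 in 2 of the 18 Hp cells and in 3 of the other 45. Among neutrophil markers, Csf3r, Cxcr2, Retnlg, Il1r2, Trem1, Hdc and Ltf were at 0, whereas G0s2, which fat-handling cells use as well, was above 0 in 65.1%, 53.8% and 74.4% of fibroblasts, and in 15 of the 18 Hp cells and 26 of the other 45 in CONV. The remaining neutrophil markers were above 0 in CONV only, Mmp8 in 2 of the 18 Hp cells and 0 of the other 45, and Mmp9 in 1 cell of each. The mesothelial marker Upk1b was above 0 in 39.7%, 21.4% and 47.7% of fibroblasts. In CONV it was above 0 in 13 of the 18 Hp cells and 12 of the other 45. No other mesothelial marker was above 0 in an Hp cell. A marker of interstitial macrophages was above 0 in 6 of the 8 Saa3 cells of CONV and in 34 of its other 55 fibroblasts. Scrublet scores were among the highest in 6 of the 18 Hp cells and 11 of the other 45. The same held for 5 of the 8 Saa3 cells of CONV and 12 of its other 55. The part of doublets was not tested. Median totals were 4388 in Hp cells and 4299 in the others. Without fibroblasts that held any AT2, club or ciliated marker the Hp share was again 28.6% in CONV. Without those that held any neutrophil marker as well, 20 CONV, 53 CONV AsiDNA and 44 FLASH cells were left. In CONV AsiDNA and FLASH, G0s2 was the only neutrophil marker above 0, so this step took out cells with G0s2 there. Of the 20 CONV cells left, Hp was above 0 in 15% and Lbp in 20.0%, with too few counts of Lbp for a ratio. The log2 ratio of Saa3 for CONV over FLASH was then -0.14.

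Most genes of the wider lists were within 2-fold in fibroblasts. Of 10 acute phase genes with a ratio, 1 was higher past 2-fold for CONV over CONV AsiDNA, Trf (1.51), and none for CONV over FLASH. Of 12 regulators none was higher, and 2 and 3 were lower. Of all genes in these pairs, 9.81% and 10.4% were past 2-fold. Stat3, which carries the interleukin 6 signal, was above 0 in 46.0%, 78.6% and 73.3% of the fibroblasts (log2 ratios -1.20 and -1.20), and Il17ra, a receptor chain for interleukin 17, in 1.59%, 16.2% and 6.40%.

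Endothelial cells, which line the vessels, carried Lbp at 20.7% of 372 cells in CONV (16.7 to 25.2), 26.2% of 455 in CONV AsiDNA (22.2 to 30.4) and 29.3% of 484 in FLASH (25.3 to 33.6). The levels of 120, 141 and 177 adjusted CPM ran in the order opposite to that in AT2 cells and fibroblasts. The intervals of the share did not overlap between CONV and FLASH, as for 21.6% of all genes, but did at 1000 adjusted counts per cell (8.87%, 6.19 to 12.2, and 14.9%, 11.8 to 18.4), and the log2 ratio of -0.52 was within 2-fold. Past 2-fold there was S100a9 alone, 1 of 3 members with a ratio, at -5.04 for CONV over CONV AsiDNA, beside 6.48% of all genes. S100a9 was above 0 in 1, 7 and 0 cells, and in the 7 cells of CONV AsiDNA S100a8 stood at 59 to 563 adjusted counts. All 7 carried neutrophil markers, against 1.34% of the other endothelial cells. For CONV over FLASH neither of 2 members was past 2-fold, beside 6.53% of all genes. Cp was above 0 in 4.57%, 5.05% and 3.51% of endothelial cells, and CONV over CONV AsiDNA stood at -0.40 on the log2 scale, or at -2.50 without the cells of the highest Scrublet scores. On the regulator list 6 of 10 endothelial genes were higher for CONV over CONV AsiDNA and 5 of 10 for CONV over FLASH, none lower. Il6, the main inducer of acute phase genes, was above 0 in 10.8%, 0.220% and 0.207% of these cells, and Cebpb in 5.91%, 0.220% and 0.826%. Lrg1 stood at 586, 108 and 121 adjusted CPM there (log2 ratios 2.33 and 2.18).

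Interstitial macrophages, the tissue macrophages outside the airspace, held most of the Saa3, in 10 of 456 CONV cells, 5 of 430 CONV AsiDNA cells and 11 of 326 FLASH cells (2.19%, 1.16% and 3.37%). The highest cell held 137, 269 and 94 adjusted counts and the levels were 250, 179 and 209 adjusted CPM, so a few cells with high values made up the level in each library. Cp was above 0 in 18.2%, 17.7% and 13.8% of these cells, at 95.8, 102 and 85.4 adjusted CPM. Neither gene was past 2-fold in any pair, beside 2.43%, 3.79% and 1.50% of all genes, although without the cells of the highest Scrublet scores Saa3 stood at log2 ratios of 2.69 for CONV over FLASH and 2.35 for CONV AsiDNA over FLASH. On the acute phase list C3 was at 65.8, 22.2 and 5.38 adjusted CPM (log2 ratios 1.24 and 2.30 for CONV over the others). The gates for mesothelial cells, the lining of the lung surface, were small. Lbp was above 0 in 7 of 19, 24 of 46 and 27 of 38 of these cells, and Cp in 8 of 19 in CONV and at 0 in the others. In CONV 18 of the 19 cells, all 8 Cp cells included, had Scrublet scores among the highest, against 10 of 46 in CONV AsiDNA and 3 of 38 in FLASH, and the part of doublets was not tested.

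**Figure D5:**
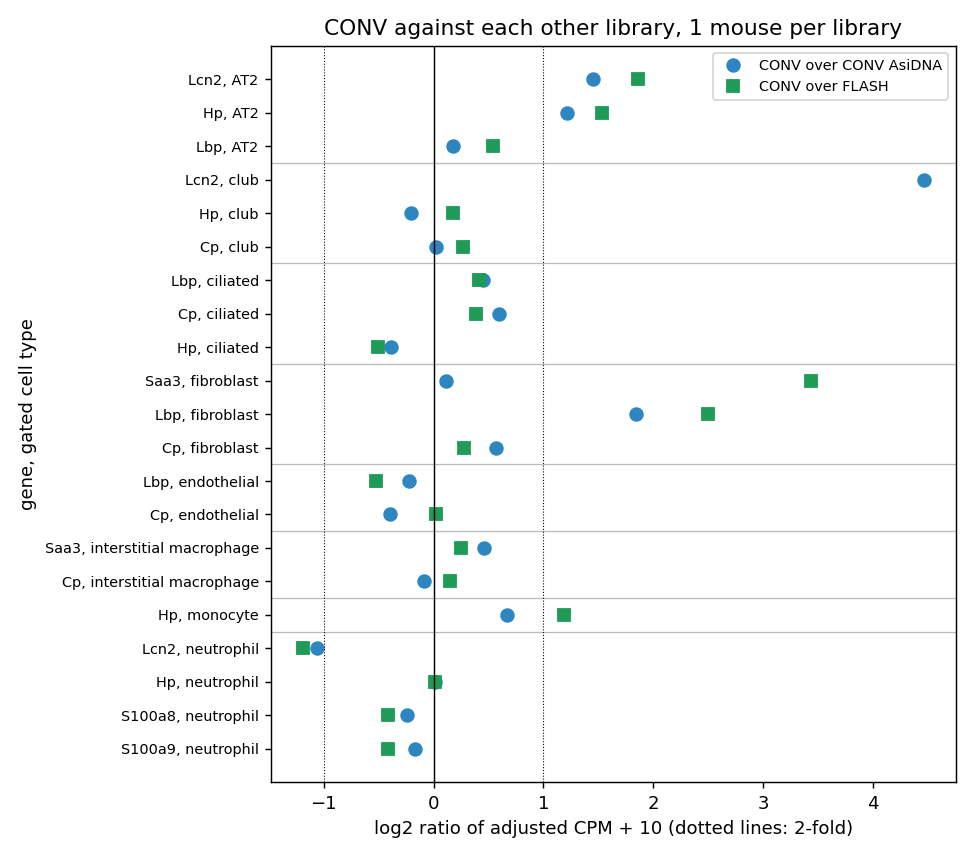
Log2 ratio of adjusted CPM plus 10 (horizontal axis) for each member and cell type, with circles for CONV over CONV AsiDNA, squares for CONV over FLASH and dotted lines at 2-fold. Cp in smooth muscle cells and pericytes and S100a9 in endothelial cells are not drawn. Lcn2 lies right of the lines in AT2 cells (1.45 and 1.86) and left of them in neutrophils (-1.06 and -1.19), while Hp in neutrophils lies at 0.01 in both.

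Outside their main cell types the members were close to absent. S100a8 was above 0 in 11 of 17812 cells of the compared gates other than neutrophils. S100a9 was above 0 in 14 of them, and 8 cells for each gene had Scrublet scores among the highest. In the 11 gates chosen in this way for Hp, the gene was above 0 in 4 of 14166 cells. These were 2 alveolar type 1 cells of CONV, with 53 and 96 adjusted counts and AT2 markers in both, 1 smooth muscle or pericyte cell of CONV and 1 alveolar macrophage of FLASH. In the gate of mast cells and basophils, Hp stood at 1 in 4 of 26 FLASH cells.

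The genes whose levels were most like those of each member were found over 53 combinations of cell type and library of at least 20 cells, among 12955 genes, by Pearson's r of log2 adjusted CPM plus 10. Combinations of 1 library share its preparation, and no p is given. For S100a8 they were Ngp (0.995), Camp (0.990) and S100a9 (0.973), and for S100a9 they were S100a8 (0.973), Ngp (0.968) and Camp (0.962). For Lcn2 they were Arg2 (0.889), Slco4c1 (0.867) and Lrg1 (0.843), and for Hp, Osgin1 (0.815), Mgst1 (0.791) and Mapk13 (0.774). For Lbp they were Megf6 (0.932), Npr1 (0.863) and Tmem98 (0.851), for Cp, Pir (0.855), Fam13a (0.851) and Aox1 (0.812), and for Saa3, Olfml3 (0.870), G530011O06Rik (0.863) and Kcnk13 (0.830). S100a8 and S100a9 were thus near copies of each other in pattern, and no other member was among the 3 nearest genes of another.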

How the data were processed

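Single-cell libraries of 3 lungs (10x 3′ v3.1), 1 mouse per group, were analysed. The submitters' processing notes name Cell Ranger 6.0.0 and mm10, and the methods name R and Seurat. The authors deposited natural log values per gene and cell, in which the logged quantity is a whole number plus 1. The adjustment behind these numbers is not given in any source used here. Values converted back lay within 1e-06 of a whole number. The 4 remaining tables (12 per-sample columns) carry other gene identifiers and partly hold comparisons by the authors, and were not used.

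Cells with at least 200 genes above 0 and at most 20% mitochondrial counts were kept. A cell took the class with the highest share of markers above 0, if at least 3 were above 0 and the share was at least 1.5 times that of the next class. Scrublet marked 0.0255% of cells and was not used as a filter, so doublets remain. The members, markers and gene lists were chosen with earlier results of these data known. Named were the members, at most 4 list genes past 2-fold per list, cell type and pair, the 3 genes most like each member, and markers, while genes at 0 in 1 library, the genes of the splits by Lcn2 and Col13a1, and further list genes given with their levels were picked after their values were seen. Shares carry exact Clopper-Pearson 95% intervals. The share of all genes called covers genes with 20 or more adjusted counts summed over the gate. Since no replicate exists, no count model and no p-value were used. The 2-fold rule, the share intervals and the likeness step were tested on simulated data, and the gating was not. Alternatives changed the gate, the filters, the doublet handling, the scaling, the value added and the depth (1000 per cell). scanpy 1.11.5 with leidenalg 0.10.2, scipy 1.17.1, pandas 2.3.3, numpy 2.4.6 and matplotlib 3.10.9 ran under Python 3.11.15. GENCODE M21 (GRCm38) gave positions and matched 22318 of the 22954 symbols.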

Additional observations from a re-analysis of the deposited data

How the results depend on the processing

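No paired analysis was possible because each group had 1 mouse. The number of member ratios past 2-fold, 13, ranged from 11 to 17 under the other alternatives, with 11 where fibroblasts that held an AT2, club, ciliated or neutrophil marker were left out, and was 20 without the cells of top Scrublet score (6% of each library), where ratios of Cp in endothelial cells and of Saa3 in interstitial macrophages also passed. The Hp share of CONV fibroblasts, 28.6%, ranged from 26.1% to 31.6% with other gates, filters and depths. Without fibroblasts that held an AT2, club, ciliated or neutrophil marker, a choice made after seeing the data, it was 15% of the 20 cells left, and the log2 ratio of Saa3 in fibroblasts for CONV over FLASH turned from 3.44 to -0.14. Why was not tested. The share of CONV AT2 cells with Lcn2, Hp and Lbp together stayed between 74.1% and 78.5%. The count of member, gate and library combinations with at least 10% of cells above 0 stayed between 49 and 63 (60 as reported), that of list genes past 2-fold between 228 and 335 (251), and 16 to 20 of the 21 most like genes were kept. With no margin between classes, Cp in AT2 cells gained log2 ratios of 3.53 and 3.91 for CONV over the others, since some cells of those libraries then held it. For the likeness the minimum sum of 50 was set against the reported 200. The limits are 1 mouse per group, adjusted values that list some genes at 0, and gates of 63 cells or fewer for CONV fibroblasts, monocytes and mesothelial cells.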
